A study of Mus musculus with 3 samples.

Results

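The IFIT and IFITM families were described in RAW macrophages, a mouse macrophage line, by hybridisation of Cy3-labelled RNA to SurePrint G3 Mouse GE arrays of 1 colour. The genes were chosen by name as *Ifit1*, *Ifit2*, *Ifit3*, *Ifitm1*, *Ifitm2*, *Ifitm3* and *Ifitm6*, and every gene probe carrying one of these names was taken. Of the 7 genes, 6 had a probe, and each of these had 1 probe spotted once, out of 56605 gene probes on the array. By gene, these were 6 of the 26840 with a symbol there. *Ifitm2* had no probe of that name, so no value is given for it. There was 1 array for each of 3 conditions, so the values have no replicates and no test could be run on them. Macrophages of the first condition received LPS, an agonist of TLR4, at 50 ng/mL. Those of the second received *L. rhamnosus* CRL1505 at 50000000 cells/mL for 24 h and then LPS (CRL1505 + LPS), and those of the third *L. plantarum* CRL1506 at the same dose and time and then LPS (CRL1506 + LPS). LPS lasted 12 h by the series design, whereas the sample descriptions state 3 h. All 3 conditions thus carried LPS, and none of the 3 arrays was of non-stimulated macrophages. The response to LPS itself, or to a strain without LPS, therefore cannot be read from them.

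IFIT proteins are built from tetratricopeptide repeats and bind viral RNA or translation factors, by which they restrain the translation of viral messages. IFITM proteins are small membrane proteins that sit at the cell surface and in endosomes, where they hinder the fusion of enveloped viruses with the cell. Both families are induced by interferon. In macrophages, TLR4 signals through TRIF to IRF3, which turns on *Ifnb1*, and the secreted interferon acts back on the receptor chains IFNAR1 and IFNAR2. The receptor activates STAT proteins, among them STAT2, which join IRF9 and bind the interferon-stimulated response element of their target genes.

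The promoter windows are given first because the genes with measured probes differed in whether they held the core of this element. RefSeq sequences from 250 bases before to 50 bases after each annotated start (300 bases in all, GRCm38.p6) were searched on both strands for the core of the element, GAAA followed by any 2 bases and a second GAAA. At least 1 match was found in 1131 of all 32851 windows (3.44%). The windows of *Ifit1* and *Ifit3* each held 2 matches, that of *Ifitm3* held 2 and that of *Ifitm2* held 1, while the windows of *Ifitm1*, *Ifitm6* and both starts of *Ifit2* held none. In the following sequences, written 5′ to 3′ on the strand of the gene, capitals mark the matches, which read as the reverse complement in the IFIT genes.
*Ifit1*, the 200 bases before the start, chr19:34640689-34640888, plus strand: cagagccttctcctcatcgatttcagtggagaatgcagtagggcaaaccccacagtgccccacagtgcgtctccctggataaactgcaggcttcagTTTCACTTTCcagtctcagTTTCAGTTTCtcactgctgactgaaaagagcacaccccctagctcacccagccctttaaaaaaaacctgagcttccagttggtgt
*Ifit3*, the 200 bases before the start, chr19:34583329-34583528, plus strand: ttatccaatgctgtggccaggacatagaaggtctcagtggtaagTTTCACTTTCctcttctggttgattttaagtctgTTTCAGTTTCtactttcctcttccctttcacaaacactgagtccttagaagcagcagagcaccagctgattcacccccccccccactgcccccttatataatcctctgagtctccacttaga
*Ifitm3*, the first 30 transcribed bases, chr7:141010715-141010744, minus strand: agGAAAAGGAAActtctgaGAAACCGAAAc
*Ifitm6*, the 150 bases before the start, chr7:141016893-141017042, minus strand, shown as a window of a measured member that held no match: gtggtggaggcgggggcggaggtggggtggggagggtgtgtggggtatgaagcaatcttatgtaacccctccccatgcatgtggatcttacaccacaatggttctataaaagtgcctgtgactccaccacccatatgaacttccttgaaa

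In *Ifit1* the matches lay 104 to 95 and 85 to 76 bases before the start, and in *Ifit3* 156 to 147 and 122 to 113 bases before it. The *Ifit1* matches also lay in a window of *Ifit1bl2*, a gene read in the opposite direction, so these sites have a start on either side. In *Ifitm3* the matches lay after the start, at bases 2 to 11 and 19 to 28 counted from 0 at the first transcribed base. A second motif, TTCNNNGAA (N is any base), the core of the gamma-activated site, was present in 2726 of all windows. It was found at bases 13 to 21 of *Ifitm3*, where it overlaps the second match of the first motif, 10 to 2 bases before the start of *Ifitm6*, and 241 to 233 bases before 1 of the starts of *Ifit2*. A match is a string of letters in this window, and binding was not measured.

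**Figure D1:**
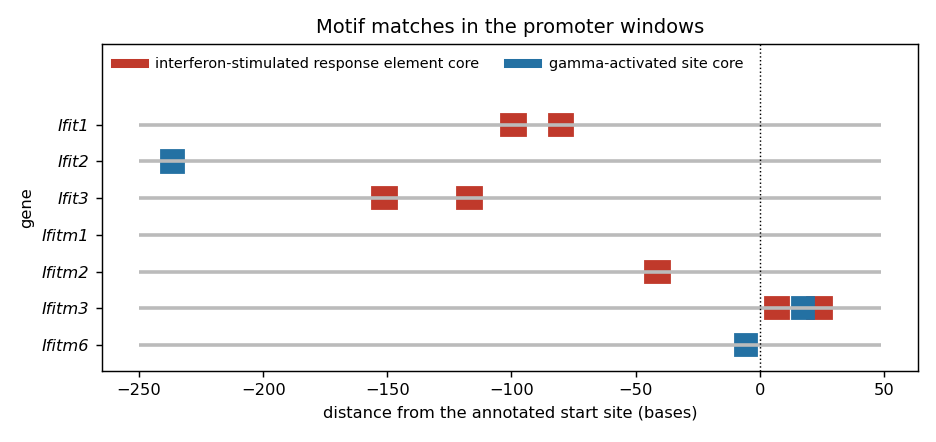
Positions of the motif matches in the 300-base promoter windows of the 7 genes, with the x axis in bases from the annotated start site (dotted line) and 1 grey line per gene. Red boxes are matches to the core of the response element and blue boxes matches to TTCNNNGAA. *Ifit1* and *Ifit3* have 2 red boxes each before the start and *Ifitm3* has 2 after it, while *Ifitm1* has no box. *Ifit2* has 2 windows, drawn on 1 line.

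Levels are given as the processed signal of a probe divided by the 75th percentile of its array. This percentile was 743.1 with LPS alone, 517.0 after CRL1505 and 697.9 after CRL1506. Ratios are differences of the log2 of these levels. Of the 59305 gene spots, 54.5%, 48.5% and 55.3% were well above background, respectively, and none was saturated. One slide and scan held the arrays of LPS and of CRL1506 + LPS, whereas that of CRL1505 + LPS was alone on another slide and in another scan. In any ratio with CRL1505, slide and strain cannot be told apart. Both strains were compared with the same LPS array. The median SD of the log2 ratio between probes of a gene was 0.23 for CRL1505 + LPS against LPS and 0.21 for CRL1506 + LPS against LPS. The 90th percentiles of this SD were 0.64 and 0.79. The median is used as the measure of spread. It compares probes on the same arrays, so it holds no variation between cultures, arrays or slides, and each measured member had 1 probe. All 8 macrophage markers were well above background on each array, with summed levels of 735, 690 and 579. Single ones moved past 2-fold in opposite directions, namely *Adgre1* (log2 ratio 2.27) and *Csf1r* (-1.47) with CRL1505, and *Adgre1* (just past 2-fold higher) and *Fcgr3* (-1.30) with CRL1506. Summed levels of the markers of T cells (1.15 to 1.32), epithelium (0.0701 to 0.314), fibroblasts (0.102 to 0.414) and granulocytes (1.41 to 2.40, with the outlier spot of *Ly6g* left out for LPS) were far lower. Of these, *Cd3d*, *Cd3e* and *S100a8* were well above background on each array, and *Cd3g*, *Krt8*, *Krt18* and *Cdh1* on none. Some of the others moved with a strain. With CRL1505, *S100a9* was at least 9.04-fold and *Col1a2* at least 3.50-fold higher than with LPS, while *S100a8* (log2 ratio -1.31) and *Epcam* (at least 3.81-fold) were lower. With CRL1506, *Dcn* was at least 4.12-fold and *Col1a1* at least 3.60-fold higher, and *Epcam* was lower (log2 ratio -1.39). The part of these markers in the ratios of the IFIT and IFITM genes was not tested. RNA per cell and the number of responding cells cannot be told apart in these bulk samples.

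The 3 IFIT genes were higher on the CRL1505 + LPS array than on the LPS array by 4.14-fold to 7.07-fold, and higher on the CRL1506 + LPS array by 1.55-fold to 2.39-fold. All 3 had their lowest level with LPS alone, the middle level with CRL1506 + LPS and the highest with CRL1505 + LPS. *Ifit1*, whose product recognises viral RNA by its cap, was measured at chr19:34723827-34723886 on the plus strand (mm9, the build of the array files). Its level was 19.4 with LPS, 80.5 with CRL1505 + LPS and 30.1 with CRL1506 + LPS. The log2 ratio to LPS was 2.05 for CRL1505 and 0.63 for CRL1506. *Ifit1* had the smallest ratio of the IFIT genes with each strain, and with CRL1506 it was under 2-fold.

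*Ifit2*, whose product binds RNA and partners with the other IFIT proteins, was measured at chr19:34650244-34650303 on the plus strand. Its level was 5.91 with LPS, 41.8 with CRL1505 + LPS and 11.3 with CRL1506 + LPS. The log2 ratio of 2.82 for CRL1505, or 7.07-fold, was the largest of all 6 measured members, and 177 of the 15612 genes compared had a larger one. For CRL1506 it was 0.94 (1.92-fold), just under the 2-fold threshold, and it was past it under 4 of 8 other normalizations.

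*Ifit3* was measured at chr19:34663105-34663164 on the plus strand. Its level was 6.13 with LPS, 40.1 with CRL1505 + LPS and 14.7 with CRL1506 + LPS. The log2 ratio was 2.71 (6.54-fold) for CRL1505 and 1.26 (2.39-fold) for CRL1506. *Ifit3* was the only measured member past 2-fold with CRL1506, which held under 8 of 8 other normalizations with a range of 1.06 to 1.37.

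**Figure D2:**
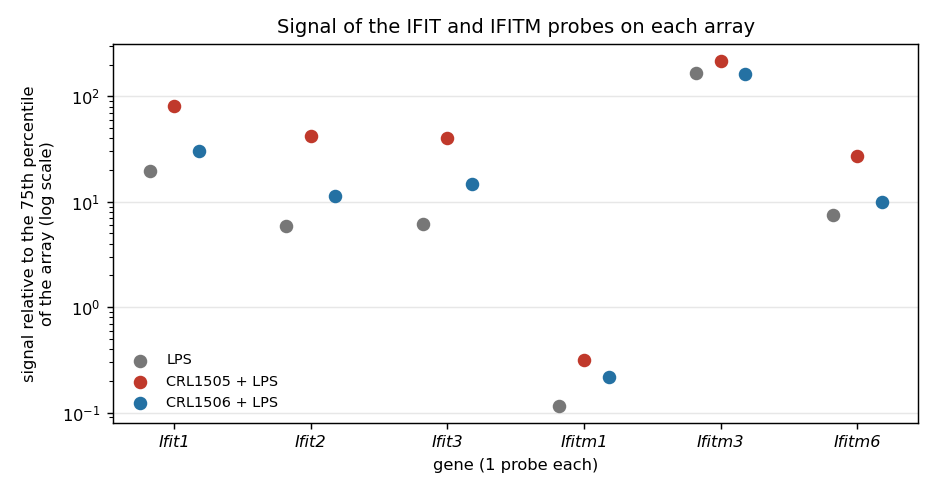
Level of the probe of each member on each array, as the signal divided by the 75th percentile of that array, on a log axis. Each point is 1 probe on 1 array and there are no error bars, since there was 1 array per condition. The points of the LPS, CRL1505 + LPS and CRL1506 + LPS arrays are to be compared within a gene. The red CRL1505 + LPS point is the highest for each of the 6 genes, by the least for *Ifitm3* at 215 against 168 with LPS, an order that turned under scaling to spike-in probes.

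The measured IFITM genes differed from each other. *Ifitm6* and *Ifitm1* were more than 2-fold higher with CRL1505 + LPS than with LPS, while *Ifitm3* was within 2-fold of its LPS level with both strains. *Ifitm3*, known for restricting influenza virus in endosomes, was measured at chr7:148195489-148195548 on the minus strand. Its level was 168 with LPS, 215 with CRL1505 + LPS and 161 with CRL1506 + LPS. The log2 ratio was 0.36 for CRL1505, turning to -0.16 under scaling to spike-in probes, and -0.06 for CRL1506, with a sign that turned under 5 of 8 other normalizations. The processed signals before scaling were 124864, 111291 and 112475, so the order of the arrays for this gene depended on the scaling. A ratio as small as that of *Ifitm3* for CRL1506 is within the spread between probes.

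*Ifitm6*, a member of the family expressed in myeloid cells, was measured at chr7:148201714-148201773 on the minus strand. Its level was 7.54 with LPS, 27.0 with CRL1505 + LPS and 9.88 with CRL1506 + LPS. The log2 ratio was 1.84 (3.58-fold) for CRL1505, between 1.32 and 2.14 under the other normalizations, and 0.39 (1.31-fold) for CRL1506. It was the measured IFITM gene with the largest ratio for CRL1505, and its window held no match to the response element.

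*Ifitm1*, whose product acts mainly at the cell surface, was measured at chr7:148155659-148155718 on the plus strand. Its level was 0.117 with LPS, 0.316 with CRL1505 + LPS and 0.220 with CRL1506 + LPS. These were dim signals of 86.7, 163 and 153 before scaling, and the error that the software assigns to the signal was 12.7% with LPS, the largest of any member on any array. The log2 ratio was 1.44 (2.71-fold) for CRL1505 and 0.91 (1.88-fold) for CRL1506. The first was past 2-fold under 6 of 8 other normalizations, with a range of 0.92 to 1.73, and the second under 1 of 8. The probes of *Ifitm1* and *Ifitm3* matched at 40 of 60 bases in their best alignment without gaps, with a longest shared run of 14 bases, and whether a probe also binds the transcript of another family gene was not tested.

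**Figure D3:**
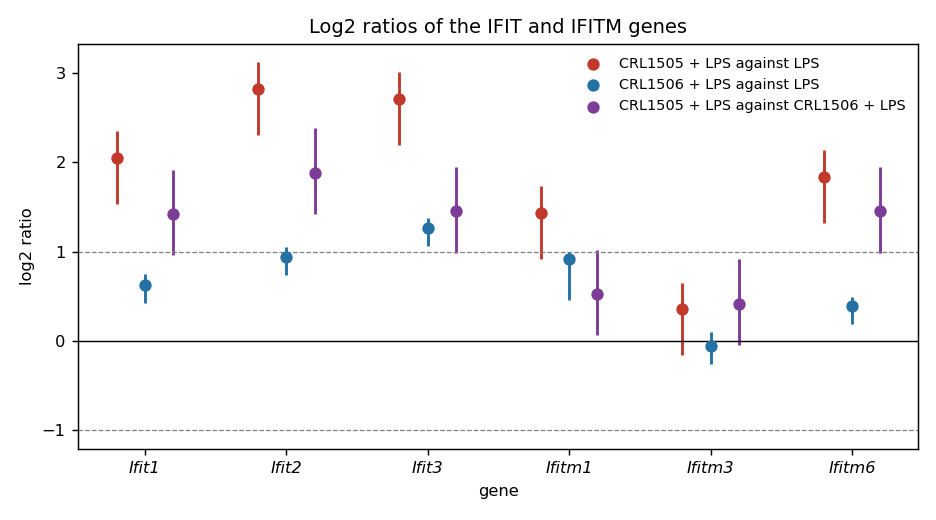
Log2 ratios of the 6 measured genes in the 3 comparisons of arrays (points), with vertical lines from the lowest to the highest value over 8 other normalizations. The dashed lines mark 2-fold. The IFIT genes and *Ifitm6* stay above the upper dashed line for CRL1505 + LPS against LPS under each normalization, while the lines of *Ifitm3* cross 0.

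Counted together, 5 of the 6 measured genes were at least 2-fold higher with CRL1505 + LPS than with LPS and none was lower by as much. Of all 15612 genes compared, 9.92% were higher and 8.4% lower by that fold, 18.3% in either direction. The share of members was above these, but the members were chosen with earlier results of these data known. With CRL1506 + LPS, 1 of the 6 was at least 2-fold higher and none was lower by as much, and 4 of the 8 other normalizations gave a count of 2 or 3. Of 16286 genes, 5.67% were higher and 3.52% lower, 9.19% in either direction, and 1 gene of 6 gives no contrast to that. The median log2 ratio of the 3 IFIT genes was 2.71 for CRL1505 and 0.94 for CRL1506. That of the 3 measured IFITM genes was 1.44 and 0.39, and the medians over all genes compared were 0.01 and -0.06. With 6 genes that share regulators, the counts are a description of these arrays.

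The strains were also set against each other, both with LPS. The log2 ratio of CRL1505 + LPS against CRL1506 + LPS was 1.42 for *Ifit1* (2.67-fold), 1.88 for *Ifit2* (3.69-fold) and 1.45 for *Ifit3* (2.73-fold). It was 1.45 for *Ifitm6*, 0.52 for *Ifitm1* and 0.42 for *Ifitm3*. The IFIT genes and *Ifitm6* were thus past 2-fold, 4 of 6 genes, where 9.01% of 15788 genes were higher, 7.46% lower and 16.5% either, and the other two were not. The median SD between probes of a gene was 0.32 in this comparison, with a 90th percentile of 0.94. The ratios of *Ifitm1* and *Ifitm3* exceeded the median by little and lay below the 90th percentile. Under the other normalizations they ran from 0.06 to 1.02 and from -0.04 to 0.91, respectively. Scaling to spike-in probes left 1 of the 6 genes past 2-fold.

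Further genes of the families were on the array. *Ifit3b*, a close copy of *Ifit3* in the same cluster of chromosome 19, had signals of 1255, 5713 and 2456 on the LPS, CRL1505 + LPS and CRL1506 + LPS arrays, with log2 ratios of 2.71 for CRL1505 and 1.06 for CRL1506. The probes of *Ifit3* and *Ifit3b* matched at 20 of 60 bases in their best alignment without gaps. Neither probe was aligned to the transcript of the other gene, so whether it also binds that transcript was not tested. *Ifit1bl1* was dim, with signals of 57.3, 294 and 64.2, and had log2 ratios of 2.88 and 0.25. *Ifit1bl2* had ratios of 0.82 and 0.53, both under 2-fold. The window of *Ifit3b*, both windows of *Ifit1bl1* and 1 of the 2 windows of *Ifit1bl2* held a match to the response element.

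Among further IFITM genes, the probes of *Ifitm7* disagreed on the threshold, with log2 ratios for CRL1505 of 1.10 for the one that represents the gene and 0.44 for the other. For CRL1506 they were -0.12 and -0.25. *Ifitm10* had ratios of 0.33 and -0.33 at the probe that represents it. *Ifitm5*, known from bone-forming cells, was well above background on the LPS array alone, where it was at least 1.07-fold brighter than with CRL1505 + LPS and at least 1.45-fold brighter than with CRL1506 + LPS. In all, 3 of these 6 genes were at least 2-fold higher with CRL1505 and 1 with CRL1506, and none was at least 2-fold lower. *Ifitm7* was counted by the probe that represents it, which was the brighter on the CRL1505 + LPS array alone (133 against 101). Its other probe was brighter with LPS (74.5 against 62.0) and with CRL1506 + LPS (62.7 against 57.1). Over all genes compared, 9.92% were at least 2-fold higher with CRL1505 and 5.67% with CRL1506.

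Of the genes of interferon production and signalling, 24 of 25 could be compared. Of these, 11 were at least 2-fold higher with CRL1505 and 3 with CRL1506, with none at least 2-fold lower in either. Over all genes compared, 9.92% were higher and 8.4% lower by that fold with CRL1505, and 5.67% and 3.52% with CRL1506. The medians of the list were 0.87 and 0.18. *Ifnb1*, which encodes interferon beta, had log2 ratios of 3.46 for CRL1505 and 2.31 for CRL1506, so that it was past 2-fold with both strains. The receptor chain *Ifnar1* had ratios of 0.46 and 1.37, and *Ifnar2* of 0.87 and 0.00. Of the parts of the transcription complex, *Stat2* had 1.56 and 0.53 and *Irf9* had 0.42 and -0.16. *Irf7*, which amplifies interferon production, had 1.90 and 0.87, while *Irf3* had -0.23 and -0.15. The inhibitors of the pathway *Usp18* (2.13 and 0.63) and *Socs1* (1.54 and 0.30) were past 2-fold with CRL1505 and not with CRL1506.

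Other interferon-stimulated genes were used to place the members. With CRL1505, 37 of 41 were at least 2-fold higher and none at least 2-fold lower, with a median log2 ratio of 1.85. Of the 37, *Slfn1* was well above background on the CRL1505 + LPS array alone and entered as a bound of 2.01-fold. It could not be compared for CRL1506, which leaves 40 genes there. With CRL1506, 8 of 40 were at least 2-fold higher and none at least 2-fold lower, with a median of 0.51. Over all genes compared, 9.92% were at least 2-fold higher with CRL1505 and 5.67% with CRL1506. This list, like the members, was chosen with earlier results of these data known. For CRL1505, *Ifit2* was exceeded by 2 of the 41 genes (*Ifi205* at 3.53 and *Gbp5* at 3.31), *Ifit3* by 3 and *Ifit1* by 17. *Ifitm6* was exceeded by 21, *Ifitm1* by 26 and *Ifitm3* by 40, so *Ifitm3* lay above 1 gene of the list, *Slfn5* at 0.09. For CRL1506, *Ifit3* was exceeded by 1 of 40 genes, *Oas2* at 1.51, and *Ifit2* and *Ifitm1* by 9 each. *Ifit1* was exceeded by 15, *Ifitm6* by 27 and *Ifitm3* by 37 of them.

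Of the interferon-stimulated genes named for their roles, *Isg15*, a ubiquitin-like modifier, had log2 ratios of 1.72 for CRL1505 and 0.54 for CRL1506. The antiviral GTPases *Mx1* and *Mx2* had 1.90 and 1.08, and 1.30 and 0.56. *Rsad2*, which encodes viperin, had 2.36 and 1.11, and *Bst2*, which encodes tetherin, had 1.32 and 1.08. *Oasl1* had 1.09 and 0.52, and the nucleic acid sensor *Zbp1* had 1.73 and 0.41. The chemokine *Cxcl10* had 0.47 and 0.03, under 2-fold with both strains, as *Ifitm3* was. With CRL1506 the lowest of the list were *Gbp2* at -0.31 and *Irgm2* at -0.17, and after *Oas2* the highest was *Oasl2* at 1.25. The windows of 19 of the 31 genes of this list that have one (61.3%) held a match to the response element, against 3.99% of all genes with a window.

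**Figure D4:**
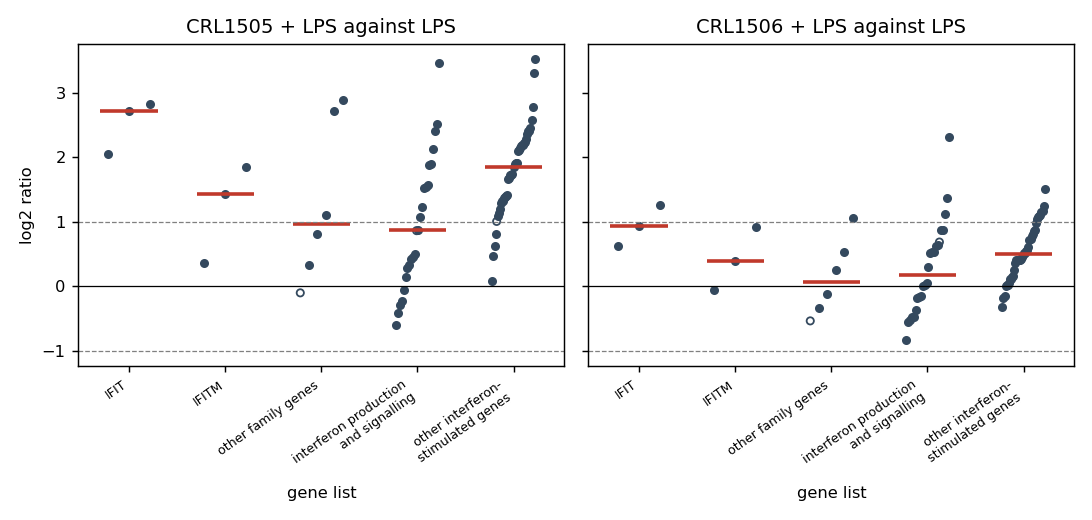
Log2 ratios to LPS of single genes (points) in the families and in the lists of interferon genes, for CRL1505 on the left and CRL1506 on the right. Red bars are medians, open points are bounds for genes well above background on 1 of the arrays compared, and dashed lines mark 2-fold. The IFIT median of 2.71 stands above the median of 1.85 of the other interferon-stimulated genes on the left, and 0.94 above 0.51 on the right. Both panels use the same LPS array.

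Among 13127 genes well above background on all 3 arrays, those nearest to the mean of the IFIT genes in the plane of the ratios to LPS were *Slfn4*, *Fcgr1*, *Ifna5*, *Gbp7* and *Kcnab1*. Their distances were 0.12 to 0.16 on the log2 scale from a mean of 2.53 for CRL1505 and 0.94 for CRL1506. *Slfn4*, the nearest, had ratios of 2.45 and 0.85. Nearest to the mean of the IFITM genes (1.21 and 0.41) were *Sat1*, *Eprs*, *Helz2*, *Atp10d* and *Nol10*, at distances of 0.01 to 0.02. That mean lies between members that differ, so genes near it need not be like any single IFITM gene. Likeness over 3 arrays rests on a pair of ratios that share the LPS array.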

How the data were processed

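RNA of RAW macrophages was measured on 3 one-colour arrays, 1 per group, grouped by sample title. Per the file headers, the authors deposited Feature Extraction output (version 12.0.3.1), in which the processed signal is an intensity corrected for background and not normalized between arrays. The authors also deposited a table of normalized log2 values. Its column medians were 6.77, and it differed from quantile-normalized log2 values after normexp (offset 50) on the median signal by at most 0.135. Direction and scale were thereby known.

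The members and lists were chosen with earlier results of these data known. Log2 processed signals were shifted by the 75th percentile of gene spots of each array, outlier spots (467, 241 and 274) were left out, repeated spots averaged, and a gene was represented by its brightest probe. Probes well above background on neither array compared were left out, and those above it on 1 gave a bound. A ratio of at least 2-fold was counted. The t-test named in the methods needs replicates and was not run. Genes other than the members were named by a fixed rule, namely every other family gene, 10 genes of interferon signalling (1 of them not reported here), 8 interferon-stimulated genes, the 2 highest and 2 lowest of that list per strain, and the 5 genes nearest to each family.

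Alternatives were 8 other normalizations, outlier spots kept, uneven spots left out, the mean over probes, other filters on dim probes, and thresholds of 1.5-fold and 4-fold. The number of arrays limits the precision, and the median SD over repeated spots of 0.040 to 0.045 (log2) describes single hybridisations. Python 3.11.15, pandas 2.3.3, NumPy 2.4.6, and R 4.3.3 with limma 3.58.1 were used, and the procedure was tested on simulated data. Probe positions are on mm9 as deposited, and no annotation of that build was used, so exon or UTR is not given. Promoter sequences are RefSeq's on GRCm38.p6, and the builds were not mixed.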

Additional observations from a re-analysis of the deposited data

How the results depend on the processing

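No paired analysis was possible because each condition had 1 array. Of the values that answer a comparison, 128 stayed within the spread or within 1.5 times the count under the alternatives, 25 moved further, and none reversed. Some of the 128 could not move. The measured members had 1 probe each, no outlier or uneven spot, and signals well above background on all arrays. Keeping outlier spots, leaving out uneven spots, averaging over probes and the other filters on dim probes therefore left their values unchanged. Shifting by the median moved the median of all genes by 0.30 for CRL1505, -0.20 for CRL1506 and 0.50 between the strains. It gave IFIT and IFITM medians of 3.01 and 1.73 for CRL1505, and of 1.95 and 1.02 between the strains, and left 5 genes of the interferon lists past 2-fold with CRL1506 (11 in the report's setting). Scaling to spike-in probes moved the median of all genes by -0.52, -0.06 and -0.46, and gave IFIT and IFITM medians of 2.19 and 0.92 for CRL1505, and of 0.99 and 0.062 between the strains with 1 member past 2-fold. The 75th percentile over probes well above background on all arrays, which moved it by -0.12, 0.09 and -0.20, put 3 members past 2-fold with CRL1506. Quantile normalization, cyclic loess, and normexp with quantile normalization put 2 there each. With cyclic loess the IFITM median between the strains was 0.85. For CRL1505 that median was 1.02 with normexp and the percentile, 0.92 with normexp and quantiles, and 1.04 in the deposited table. At 1.5-fold, 4 members and 25 list genes passed with CRL1506. At 4-fold, 3 members and 21 list genes (48 at 2-fold) passed with CRL1505, 0 members and 1 list gene with CRL1506, and 0 members between the strains. Of the single members' ratios, 33 moved by more than the spread and 165 did not, the latter counting alternatives that could not change them. Where no value shows it, the cause was not tested.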
